A study of Mus musculus with 24 samples.

Results

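Long-term haematopoietic stem cells (LTHSC) of 2 Jak2 mutant mouse lines were compared, the VF line (Vav1.Cre V617F) with libraries 1, 2 and 3 and the E12 line (Scl.Cre Exon12) with libraries 2, 4 and 11. The libraries were chosen by their labels alone and make up 6 of the 24 libraries of the series. All mice were C57BL/6N, were given tamoxifen on 5 days, and had bone marrow populations sorted 12 weeks afterwards. RNA was extracted with PicoPure and sequenced by Smart-seq2, a full-length method for small numbers of cells. Another LTHSC group, the KI line (Scl.Cre mouse Jak2 knock-in, libraries 1, 2 and 3), entered the fit to help estimate the spread and is given for orientation. The labels do not say whether the knock-in carries a mutation. The Cre driver differs together with the mutation: Vav1 drives Cre in blood cells in general and Scl (Tal1) in blood stem and progenitor cells. The mutation and the driver therefore cannot be told apart in this comparison. Whether libraries of a group came from separate animals is not stated in the labels, so every p-value refers only to the spread among libraries, which may be technical. The E12 line is also called Scl.N1 in the sample titles.

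JAK2 is the kinase that passes on signals from the receptors of erythropoietin and other blood cytokines. It phosphorylates STAT factors, which move to the nucleus and switch on target genes, among them the SOCS family and Cish, whose proteins in turn dampen the receptors. The V617F change and mutations in exon 12 both make the kinase active without cytokine and are found in myeloproliferative neoplasms, V617F across several of these diseases and exon 12 mutations mainly in polycythaemia vera, a disease of excess red cells.

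E12 4 stood apart from the other LTHSC libraries. On principal component 1, taken over the 500 genes of highest variance, which held 35.45% of the variance, E12 4 lay at 68.8 and the other 8 libraries between -20.6 and 25.0, with E12 11 the next highest. Its TMM factor was 0.754, against 0.99 to 1.06 in the others. The summed level of 5 genes of surface markers that define the LTHSC sort (among them Ly6a, Kit, Slamf1 and Procr) was 2216 to 2396 CPM (TMM-scaled counts relative to library size) in VF, 908 in E12 4, 2476 and 2741 in the other E12 libraries, and 2073 to 2260 in KI. None of the 5 markers was at 0 in any LTHSC library. A list of 30 neutrophil and monocyte genes summed to 1152 to 1373 CPM in VF, to 36023 in E12 4, to 2588 and 2320 in E12 2 and E12 11, and to 1927 to 4795 in KI. The lymphoid list (30 genes) summed to 195 to 245 CPM in VF, 2646 in E12 4, 376 and 545 in the other E12 libraries and 241 to 301 in KI. Mast cell, basophil and eosinophil genes (22) summed to 1115 to 1331 CPM in VF, 3281 in E12 4, 1061 and 1175 in E12 2 and E12 11, and 899 to 1066 in KI. At most 1 neutrophil and monocyte gene was at 0 in any library, and up to 13, 14 and 17 lymphoid genes were at 0 in single libraries of VF, E12 and KI. Stroma and endothelium genes (20) summed to 136 to 174 CPM in VF, 153 to 220 in E12 and 119 to 188 in KI. Ribosomal Rn45s took 5.04% of the counts of E12 11 and 0.5% to 2.06% in the other LTHSC libraries. Y-linked genes were read in all 9 libraries, at 64.4 CPM summed without TMM in E12 4 and 185 to 258 in the others, and Xist reached 533 CPM in VF 2, against at most 9.59 in the rest. The gene tests were therefore run with and without E12 4. Total counts were 21628391 to 22269251 in VF, 24075342 to 29413242 in E12 and 12798410 to 16715607 in KI. In these bulk libraries fewer cells of a type and less RNA per cell cannot be told apart.

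**Figure D1:**
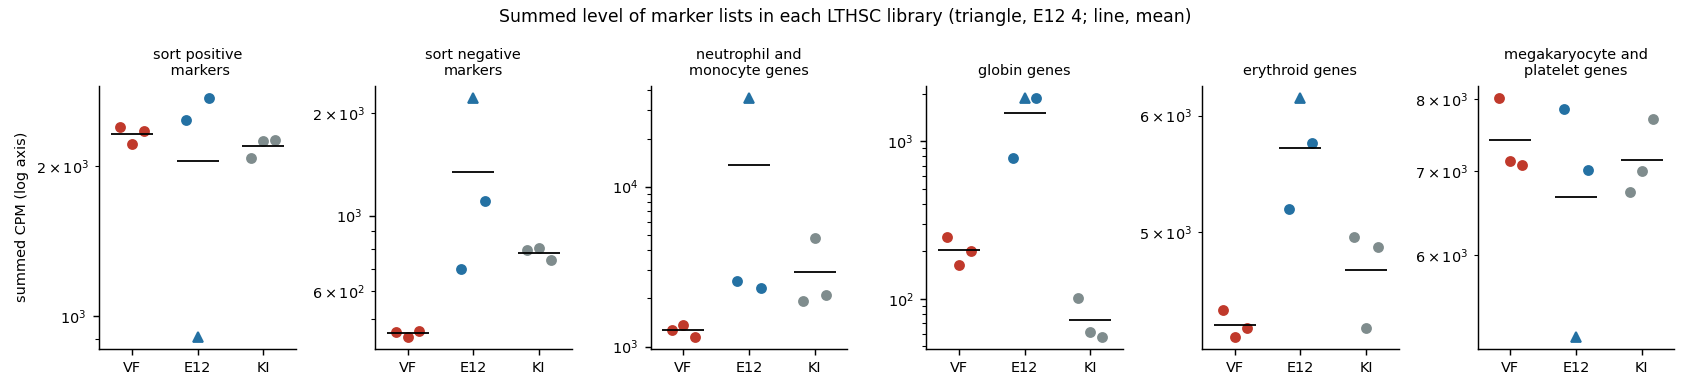
Summed CPM (log axis, TMM-scaled) of 6 marker lists in each LTHSC library, with VF left of E12 and KI at the right; points are libraries, the triangle is E12 4 and the line is the group mean. E12 4 is lowest for the sort-defining genes (908 CPM) and highest for neutrophil and monocyte genes (36023 CPM), while the 3 VF libraries lie below all 3 E12 libraries for the globin and sort-negative genes.

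Few genes separated the lines at the chosen threshold, an adjusted p under 0.05 (quasi-likelihood test of edgeR, Benjamini-Hochberg adjustment over all genes). Of 14152 genes tested, 1 was higher in VF (0.00707%), Socs2, and 4 were lower (0.0283%), Echdc2, Hba-a1, Hba-a2 and Lrg1. Without E12 4, 7 of 14457 genes were higher (0.0484%) and 6 were lower (0.0415%). Those 13 genes include all 5 of the first fit and add, among others, Slc17a8, Actr3b, Vwf, Ecm1, Plxdc2 and Timp3 on the higher side and Wfdc17 on the lower side. An unadjusted p under 0.05 was reached by 1560 genes with all 9 libraries and by 1372 without E12 4. The median log2 fold change of VF over E12 over all genes was -0.02 and, without E12 4, 0.01. All 3 VF libraries lay above all 3 E12 libraries in 11.5% of the genes tested and below them in 9.83%; set against E12 2 and E12 11 alone, the shares were 16.6% and 14.7%. The number of calls depended on the libraries: it was 305 without E12 2, 4 without E12 11, and 1, Echdc2, without VF 1, VF 2 or VF 3. With the 6 VF and E12 libraries alone it was also 1. Where no other tool or library set is named, a gene is said to pass or to be called in these edgeR fits with all 9 libraries or without E12 4.

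**Figure D2:**
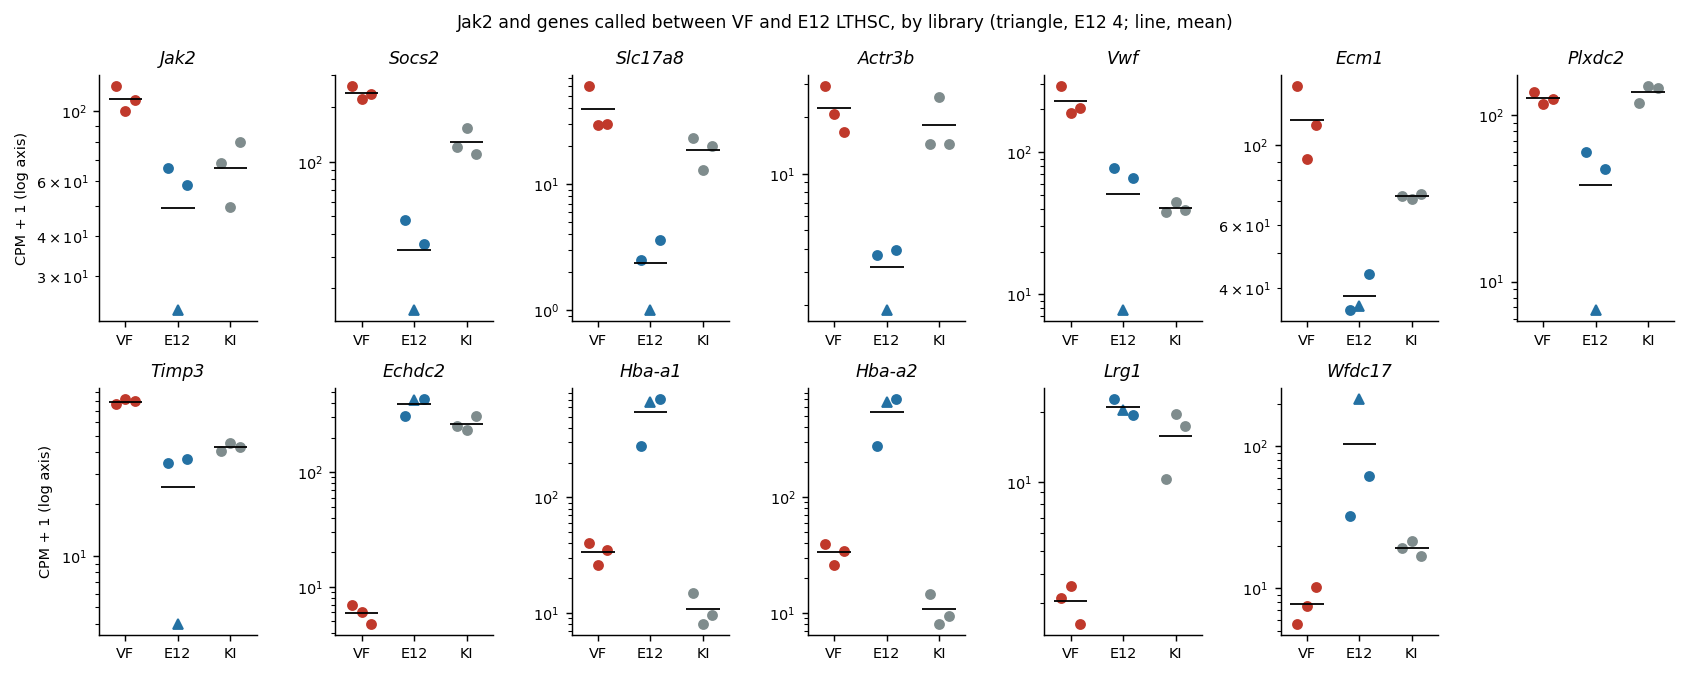
CPM + 1 (log axis, TMM-scaled) of Jak2 and of named genes that passed the threshold in either fit, by LTHSC library, VF left of E12 and KI at the right; points are libraries, the triangle is E12 4 and lines are group means. For each gene shown all 3 VF libraries lie on one side of all 3 E12 libraries, and for Jak2, Socs2, Slc17a8, Actr3b, Vwf, Plxdc2 and Timp3 E12 4 is the lowest E12 library.

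Jak2 itself (Entrez 16452, chromosome 19, 29251803 to 29313095 in GRCm38) is the gene both lines carry a mutation label for. It had 119, 99.2 and 107 CPM in VF and 64.9, 22.3 and 57.4 CPM in E12, with 67.6, 48.8 and 78.8 CPM in KI. The VF libraries lay above all E12 and KI libraries, and E12 4 was the lowest of the 9. The mean log2 CPM was higher in VF by 1.31 (exact 2-sided permutation p = 0.1, the smallest that 3 against 3 libraries allow), and the edgeR estimate of 1.17 (SE 0.37) did not pass (adjusted p = 0.441). Without E12 4 that estimate was 0.82 (SE 0.21, adjusted p = 0.306). Counts per gene do not show which allele was read, so this level does not check the mutation labels. The VF and E12 genotype labels also do not say whether the changed copy is the mouse gene itself.

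Among the feedback inhibitors of the pathway, Socs2, a STAT5 target that dampens growth hormone and cytokine receptors, rose in VF. Its level was 262, 221 and 235 CPM in VF, against 46.7, 14.2 and 34.3 CPM in E12 and 119, 152 and 109 CPM in KI. No VF library came near the E12 range, and the KI libraries lay between the lines. The log2 fold change of VF over E12 was 2.92 (SE 0.39, adjusted p = 0.0431) and, without E12 4, 2.56 (SE 0.21, adjusted p = 0.00183). Per kb of gene length, Socs2 averaged 88.8 CPM in VF and 11.7 CPM in E12, which in VF was more than Cish (59.7 CPM per kb) and Socs1 (24.1 CPM per kb), and in E12 less than Cish (21.1 CPM per kb). The call for Socs2 was lost without E12 11 (adjusted p = 0.138), without any one VF library (adjusted p of 0.141 to 0.246) and with the 6 libraries of the lines alone (adjusted p = 0.334), at log2 fold changes between 2.85 and 2.98.

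Cish, the inhibitor that STAT5 induces early after cytokine, had 163, 167 and 210 CPM in VF, 80.1, 13.2 and 97.4 CPM in E12, and 158, 228 and 188 CPM in KI. The groups of VF and E12 did not overlap, and KI lay at the VF level. The fold change did not pass (log2 1.4995, SE 0.54, adjusted p = 0.448; without E12 4 log2 1.01, SE 0.19, adjusted p = 0.132). The region at its start (chr9:107296409-107296688, + strand, RefSeq on GRCm38.p6, 250 bases before to 30 from the start site) is shown because it holds a pair of copies of the STAT motif TTCNNNGAA, which reads the same on both strands; they begin 0 and 11 bases after the start site and are in capitals.
Cish: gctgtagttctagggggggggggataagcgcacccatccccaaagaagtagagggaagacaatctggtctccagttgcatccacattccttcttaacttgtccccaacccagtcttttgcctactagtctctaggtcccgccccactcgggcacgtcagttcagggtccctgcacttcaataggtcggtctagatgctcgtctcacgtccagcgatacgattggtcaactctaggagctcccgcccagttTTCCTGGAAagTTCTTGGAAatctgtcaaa
The motif is present in 7.83% of the 32851 promoter windows of that length, and the match is a description of letters only. Of the 13 genes called in either fit, 8 have an entry in the promoter table, and none of those entries holds the motif. Socs2 is among the called genes without an entry, so its start region was not searched.

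The remaining genes of the feedback list did not pass in either fit. This list is broad: besides SOCS genes and Cish it holds Sh2b3, Ptpn phosphatases, Pias genes and Cbl, not all of which are feedback inhibitors. Of its 16 genes tested, 1 rose, 0 fell and 15 were not called, with a median log2 fold change of 0.42 (0.40 without E12 4). In 8 of the 16 all VF libraries lay above all E12 libraries, against 11.5% of all genes, and in 1 below, against 9.83%; against E12 2 and E12 11 alone the counts were 8 and 2, where 16.6% and 14.7% of all genes do so. Socs1, which blocks JAK kinases directly, had 28.6, 30.3 and 38.0 CPM in VF and 21.9, 15.9 and 4.98 CPM in E12 (log2 1.18, SE 0.48, adjusted p = 0.448; without E12 4 1.26, adjusted p = 0.514). Besides Socs2, Cish and Socs1, the genes above in all VF libraries were Socs4, Socs5, Pias3, Ptpn11 and Cbl, with log2 fold changes of 0.45 to 0.80. Ptpn1, a phosphatase that acts on JAK2, had 67.5, 66.0 and 67.7 CPM in VF and 78.3, 150.0 and 84.5 CPM in E12 (log2 -0.64, SE 0.28, adjusted p = 0.451; without E12 4 -0.28, adjusted p = 0.617), the only feedback gene with all VF libraries below. Sh2b3 (LNK), an adaptor that restrains JAK2 signalling, had 78.4, 69.9 and 68.4 CPM in VF and 68.5, 53.3 and 42.1 CPM in E12, with the lowest VF library just under the highest E12 library. Socs3, Socs6, Socs7, Ptpn2, Ptpn6 and Pias1 overlapped between the lines.

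**Figure D3:**
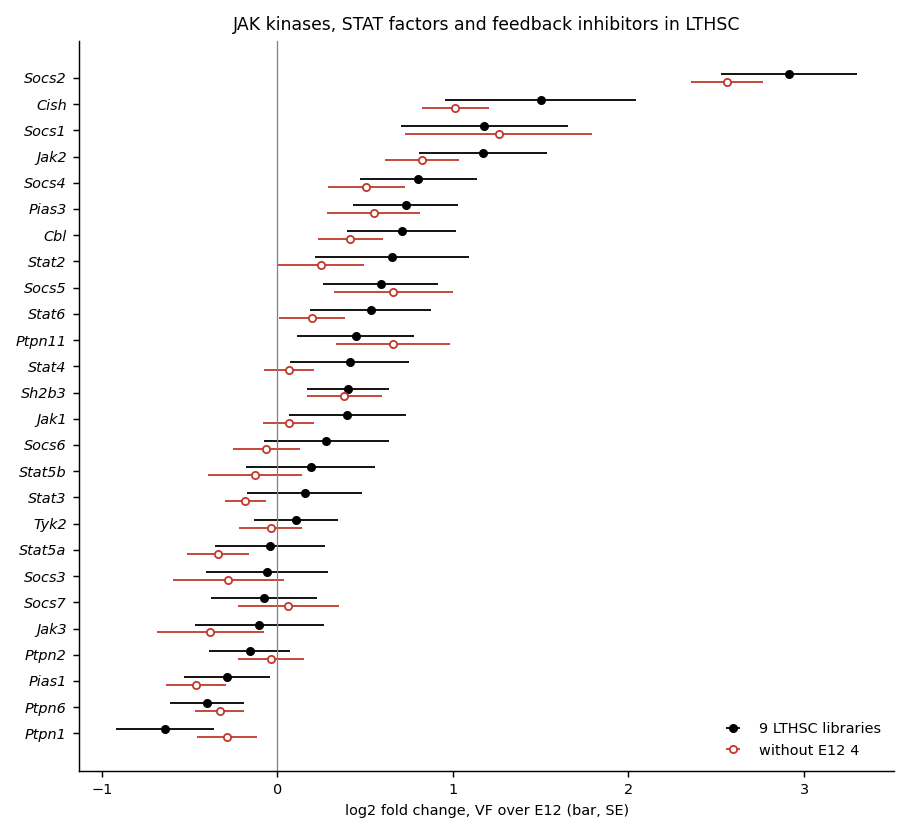
Log2 fold change of VF over E12 in LTHSC (horizontal axis, bars are SE) for JAK kinases, STAT factors and the 16 genes of the feedback list, with all 9 LTHSC libraries (filled) and without E12 4 (open). Socs2 stands at 2.92 and 2.56, Cish at 1.4995 and 1.01 and Socs1 at 1.18 and 1.26, while the STAT factors shown reach 0.65 at most (Stat2) with all 9 libraries.

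Of the 11 JAK kinases and STAT factors none was called. Only Jak2 and Stat6 had all VF libraries above all E12 libraries, and 0 below, against 11.5% and 9.83% of all genes. Against E12 2 and E12 11 alone, 2 lay above and 1 below, against 16.6% and 14.7% of all genes. Stat6 had 176, 188 and 172 CPM in VF and 156, 60.5 and 154 CPM in E12 (log2 0.53, adjusted p = 0.504; without E12 4 0.20, adjusted p = 0.736). Stat5a and Stat5b, the factors that erythropoietin signalling uses most, overlapped: Stat5a had 152, 141 and 124 CPM in VF and 146, 79.0 and 205 CPM in E12, and Stat5b had 127, 116 and 106 CPM in VF and 108, 52.3 and 145 CPM in E12. Their estimates changed sign or size with E12 4 (Stat5a log2 -0.04, and -0.34 without it; Stat5b 0.19, and -0.13 without it). Jak1, Jak3, Tyk2, Stat2, Stat3 and Stat4 overlapped as well. The median of the 11 was 0.35 with all libraries and -0.04 without E12 4.

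The JAK-STAT target list, which holds genes outside the feedback loop, had 0 genes that rose, 1 that fell (Lrg1) and 23 not called of 24 tested. Its median was 0.01 in both fits. Myc, a growth regulator, had 213, 324 and 293 CPM in VF and 545, 738 and 578 CPM in E12, with no overlap, and did not pass (log2 -1.17, SE 0.24, adjusted p = 0.236; without E12 4 log2 -1.03, adjusted p = 0.0673). Of the 24, 5 had all VF libraries below, namely Myc, Lrg1, Bcl6, Junb and Gfi1b. Another 3, Bcl2l1, Hif1a and Id1, had all above. The shares of all genes were 9.83% below and 11.5% above. Against E12 2 and E12 11 alone, 5 lay below and 5 above, against 14.7% and 16.6% of all genes.

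Echdc2, which codes for a mitochondrial protein related to enoyl-CoA hydratases, showed the largest fall among the called genes. It was close to absent in VF, with 5.95, 5.03 and 3.80 CPM, against 308, 426 and 432 CPM in E12 and 251, 230.0 and 305 CPM in KI. Both Scl.Cre lines were high and the Vav1.Cre line alone was low. The log2 fold change of VF over E12 was -6.30 (SE 0.31, adjusted p = 9.26e-06), and -6.23 (SE 0.24, adjusted p = 3.99e-06) without E12 4. It was the only gene called in every alternative fit of this comparison. The gene lies on chromosome 4 (108165436 to 108179308). The mutation, the Cre driver and any other difference between the lines go together here, and their parts in this difference were not tested.

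Alpha-globin was lower in VF than in E12. Hba-a1 had 38.9, 25.0 and 34.0 CPM in VF, against 278, 665 and 707 CPM in E12 and 13.7, 7.09 and 8.50 CPM in KI. All 3 E12 libraries, E12 4 among them, lay above every VF library, and KI was lower than VF. The log2 fold change of VF over E12 was -4.08 (SE 0.42, adjusted p = 0.00701; without E12 4 -3.92, SE 0.39, adjusted p = 0.00686). Hba-a2 gave nearly the same counts (38.7, 24.9 and 33.6 CPM in VF and 275, 660 and 702 CPM in E12; log2 -4.07, adjusted p = 0.00701). These are near copies on chromosome 11 with shared reads, and they are read here as a single locus. Both calls were lost when any one VF library was left out (adjusted p of 0.0817 to 0.104) and with the 6 libraries of the lines alone (adjusted p = 0.0835).

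The start regions of the alpha-globin pair (chr11:32283422-32283701 for Hba-a1 and chr11:32296242-32296521 for Hba-a2, both + strand, RefSeq on GRCm38.p6, 250 bases before to 30 from the start site) are shown because the pair moved as one. The capitals mark TGATAA, one of 2 GATA motifs searched on both strands (TGATAA and AGATAA), which begins 183 bases before the start of Hba-a1 and 186 before that of Hba-a2.
Hba-a1: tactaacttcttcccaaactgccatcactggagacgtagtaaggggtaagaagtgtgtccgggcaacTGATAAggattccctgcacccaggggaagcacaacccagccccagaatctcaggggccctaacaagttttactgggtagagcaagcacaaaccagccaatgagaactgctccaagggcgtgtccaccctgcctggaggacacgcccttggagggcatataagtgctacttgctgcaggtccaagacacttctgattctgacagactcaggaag
Hba-a2: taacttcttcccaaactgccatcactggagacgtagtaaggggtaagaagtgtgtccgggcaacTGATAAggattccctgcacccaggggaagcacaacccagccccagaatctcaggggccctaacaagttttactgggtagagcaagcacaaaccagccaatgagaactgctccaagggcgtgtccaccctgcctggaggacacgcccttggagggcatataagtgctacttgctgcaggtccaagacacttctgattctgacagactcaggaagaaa
Apart from a shift of a few bases the letters run alike. TGATAA is found in 8.69% of the 32851 windows and AGATAA in 10.7%.

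Beta-globin was less far apart between the lines. Hbb-bs had 40.3, 25.0 and 29.0 CPM in VF, 64.3, 166.0 and 134 CPM in E12, and 16.1, 8.83 and 7.67 CPM in KI (log2 -1.95, SE 0.41, adjusted p = 0.258; without E12 4 -1.66, adjusted p = 0.229). Hbb-bt had 44.2, 32.2 and 37.6 CPM in VF, 48.5, 115 and 104 CPM in E12, and 20.9, 14.6 and 12.5 CPM in KI (log2 -1.23, SE 0.35, adjusted p = 0.433; without E12 4 -1.01, adjusted p = 0.42). Neither overlapped between VF and E12 and neither passed; Hbb-b1 had the values of Hbb-bs nearly and Hbb-b2 those of Hbb-bt, so these names stand for 2 sets of reads. Of 6 globin genes tested, 2 fell, 0 rose and 4 were not called, with all 6 below in every VF library against 9.83% of all genes. The summed level of the globin list, which counts each near copy, was 164 to 247 CPM in VF, 778 in E12 2, 1888 in E12 4, 1884 in E12 11 and 57.3 to 101 in KI.

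Other red cell genes did not pass in these fits; limma voom with sample weights called Slc4a1 and Trib2. Of 41 erythroid genes, 0 were called, 16 lay below and 3 above in all VF libraries (9.83% and 11.5% of all genes; 17 and 3 against E12 2 and E12 11 alone, where 14.7% and 16.6% of all genes do so), and the median was -0.42 (-0.31 without E12 4). Slc4a1, the anion exchanger band 3 of the red cell membrane, had 0.471, 0.39 and 0.567 CPM in VF and 8.9982, 4.19 and 6.39 CPM in E12 (log2 -3.76, SE 1.07, adjusted p = 0.441; without E12 4 -4.00282, adjusted p = 0.348). Klf1, the master factor of late red cell genes, had 17.2, 22.2 and 19.7 CPM in VF and 33.2, 128 and 23.2 CPM in E12, so that E12 4 set most of its difference (log2 -1.64, adjusted p = 0.448; without E12 4 -0.52, adjusted p = 0.617). Trib2, a pseudokinase on the erythroid list, had 2.18, 1.65 and 3.75 CPM in VF and 17.6, 6.78 and 22.9 CPM in E12 (log2 -2.64, adjusted p = 0.258; without E12 4 -3.01, adjusted p = 0.0611). On the other side, Aqp1, the water channel of red cells, had 121, 103 and 96.5 CPM in VF, 71.3, 34.0 and 46.5 CPM in E12, and 25.2, 21.4 and 18.5 CPM in KI (log2 1.08, adjusted p = 0.415; without E12 4 0.85, adjusted p = 0.321). The erythroid list summed to 4250 to 4430 CPM in VF and 5187 to 6169 CPM in E12.

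Genes of iron handling were fixed as lists because the series title names iron. None of the 32 genes of iron uptake, storage and export, of the 18 of heme synthesis or of the 24 of iron-sulfur clusters was called in either fit. Their medians were -0.32, -0.30 and -0.44, and without E12 4 they were -0.16, -0.01 and -0.02. All VF libraries lay below all E12 libraries in 6, 3 and 4 genes of these lists and above in 1 of each, against 9.83% and 11.5% of all genes. Against E12 2 and E12 11 alone, 6, 4 and 4 genes lay below and 2, 1 and 1 above, with 33 iron genes tested, against 14.7% and 16.6% of all genes. Tfrc, the transferrin receptor, had 35.8, 28.9 and 19.2 CPM in VF and 36.9, 55.5 and 36.9 CPM in E12 (log2 -0.62, adjusted p = 0.456; without E12 4 -0.40, adjusted p = 0.647). Ftl1, the ferritin light chain that stores iron, had 651, 684 and 888 CPM in VF and 983, 1727 and 1248 CPM in E12 (log2 -0.83, adjusted p = 0.441; without E12 4 -0.60, adjusted p = 0.353). Alas1, the first enzyme of heme synthesis in most cells, had 44.0, 43.1 and 54.5 CPM in VF and 60.1, 555 and 72.8 CPM in E12, so E12 4 again held most of the difference (log2 -2.28; without E12 4 -0.50, adjusted p = 0.446).

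Lrg1, a secreted glycoprotein of the acute phase response that neutrophils also make, fell in VF. Its level was 2.14, 2.56 and 1.44 CPM in VF, against 21.8, 19.5 and 18.5 CPM in E12 and 9.28, 18.6 and 16.4 CPM in KI. The 3 E12 libraries were within a narrow range, and E12 4 did not stand apart for this gene. The log2 fold change of VF over E12 was -3.28 (SE 0.39, adjusted p = 0.0166; without E12 4 -3.30, SE 0.39, adjusted p = 0.0208). Its call was lost without any one VF library (adjusted p of 0.128 to 0.246), with the 6 libraries alone (0.0897) and with limma voom (0.0652).

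Wfdc17, a small secreted protein of myeloid cells, passed without E12 4. It had 4.66, 6.58 and 9.25 CPM in VF, 31.4, 214 and 60.9 CPM in E12, and 18.2, 20.5 and 15.9 CPM in KI (log2 -3.90, adjusted p = 0.142; without E12 4 -2.76, SE 0.36, adjusted p = 0.034). With E12 4 kept, it passed with no filter (adjusted p = 0.0441), with DESeq2 (3.98e-08), with voom and sample weights (0.00455) and without E12 2 (0.0267). It did not pass with RLE scaling (0.143), limma voom (0.225), the 6 libraries alone (0.486) or without E12 11 (0.138). Without VF 1, VF 2 or VF 3 it did not pass either (0.462 to 0.749). E12 4 was highest and the 2 other E12 libraries still lay above all VF and KI libraries. Many genes of the neutrophil and monocyte list were also lower in VF than in E12. None of the 30 genes of that list was called. In 19 of them all VF libraries lay below and in 0 above, against 9.83% and 11.5% of all genes, and the median was -2.38. Without E12 4 the counts were again 19 and 0, against 14.7% and 16.6% of all genes, and the median without E12 4 was -1.41.

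Ngp, a neutrophil granule protein, had 100.3, 96.8 and 52.7 CPM in VF, 358, 531 and 313 CPM in E12, and 223, 913 and 250 CPM in KI (log2 -2.27, adjusted p = 0.323; without E12 4 -2.01, adjusted p = 0.321). Mpo, the myeloperoxidase of neutrophil precursors, had 44.0, 67.8 and 73.7 CPM in VF, 142, 19648 and 125 CPM in E12, and 88.2, 427 and 219 CPM in KI (log2 -6.75, adjusted p = 0.406; without E12 4 -1.12, adjusted p = 0.525). For Ngp the E12 libraries were alike and for Mpo E12 4 held nearly all of the sum. The part of such cells in the globin, Lrg1 and Wfdc17 differences was not tested.

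Of 5 surface genes that an LTHSC gate usually excludes, 4 had all VF libraries below all E12 libraries, against 9.83% of all genes, and none passed. Flt3, the receptor that marks the loss of long-term potential, had 30.3, 32.7 and 60.1 CPM in VF, 91.6, 116 and 188 CPM in E12, and 66.0, 73.2 and 105 CPM in KI (log2 -1.68, SE 0.36, adjusted p = 0.269; without E12 4 -1.77, adjusted p = 0.171). Cd34 had 420.2, 402 and 393 CPM in VF, 593, 1131 and 899 CPM in E12, and 713, 711 and 630.3 CPM in KI (log2 -1.11, SE 0.25, adjusted p = 0.297; without E12 4 -0.89, adjusted p = 0.119). For both, VF was lowest and neither passed in these fits. Both passed with DESeq2 (adjusted p = 0.00207 for Flt3 and 0.00457 for Cd34) and with edgeR without E12 2 (adjusted p = 0.0426 and 0.0267). Cd48, a gate-negative antigen of the SLAM family, had 3.64, 4.29 and 2.62 CPM in VF and 5.04, 586 and 13.3 CPM in E12 (log2 -5.84, adjusted p = 0.433; without E12 4 -1.39, adjusted p = 0.595), and passed without E12 2 (adjusted p = 0.0479). Fcgr3 likewise had 1.75, 1.34 and 1.31 CPM in VF and 4.62, 271 and 2.06 CPM in E12 (log2 -5.97, adjusted p = 0.403; without E12 4 -1.18, adjusted p = 0.533), and Fcgr2b overlapped. Their sum was 442 to 460 CPM in VF, 700.03 in E12 2, 2215 in E12 4, 1105 in E12 11 and 743 to 802 in KI. The gates themselves are not given in the labels.

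Of the sort-defining genes, Slamf1 (CD150) lay above in all VF libraries. It had 165, 112 and 114 CPM in VF, 63.3, 20.2 and 57.9 CPM in E12, and 50.8, 44.2 and 34.2 CPM in KI (log2 1.46, SE 0.39, adjusted p = 0.406; without E12 4 1.10, SE 0.23, adjusted p = 0.177), and it passed with DESeq2 (adjusted p = 0.0389). Ly6a (Sca-1), Kit and Procr (EPCR) overlapped between the lines.

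Vwf, the platelet adhesion protein that also marks stem cells biased to platelets, passed without E12 4. It had 292, 187 and 203 CPM in VF, 76.4, 6.72 and 65.1 CPM in E12, and 36.7, 43.8 and 38.4 CPM in KI. The lowest VF library had more than any E12 or KI library. The log2 fold change was 2.20 (SE 0.64, adjusted p = 0.441) and, without E12 4, 1.68 (SE 0.21, adjusted p = 0.0313). Of 49 megakaryocyte and platelet genes, 0 were called with all libraries and 1, Vwf, without E12 4; 10 lay above in all VF libraries and 2 below, against 11.5% and 9.83% of all genes, with a median of 0.20. Against E12 2 and E12 11 alone, 11 of 50 tested lay above and 7 below, against 16.6% and 14.7% of all genes, and the median without E12 4 was 0.08. F2r, a thrombin receptor, had 345, 235 and 241 CPM in VF and 168, 23.9 and 138 CPM in E12 (log2 1.31, adjusted p = 0.448; without E12 4 0.83, adjusted p = 0.247). Pf4, a platelet chemokine, had 172, 120.3 and 104 CPM in VF, 90.6, 51.0 and 44.3 CPM in E12, and 31.989, 17.2 and 16.7 CPM in KI (log2 1.10, adjusted p = 0.448; without E12 4 0.97, adjusted p = 0.474). The list as a whole summed to 7085 to 8016 CPM in VF and 5166 to 7856 CPM in E12, so the sums overlapped.

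Of 43 stem cell genes, 0 were called with all libraries and 1, Vwf, without E12 4. In all VF libraries 9 lay above (Mecom, Gata2, Hoxb5, Tcf15, Tek, Vwf, Slamf1, Ctnnal1 and Prdm16) and 3 below (Egr1, Lyl1 and Cd27), against 11.5% and 9.83% of all genes. Against E12 2 and E12 11 alone the counts were 9 and 8, against 16.6% and 14.7% of all genes. The median was 0.27 with E12 4 and 0.04 without it. The summed level was 8306 to 8987 CPM in VF, 9131 in E12 2, 5254 in E12 4 and 9260 in E12 11.

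Ecm1, Timp3 and Plxdc2 also passed without E12 4. Ecm1, a secreted matrix glycoprotein, had 146, 90.5 and 113 CPM in VF, 33.6, 34.5 and 42.7 CPM in E12, and 71.1, 69.6 and 72.1 CPM in KI (log2 1.66, SE 0.24, adjusted p = 0.0669; without E12 4 1.60485, SE 0.22, adjusted p = 0.039). Here E12 4 was within the range of its group, and KI lay between the lines. Timp3, an inhibitor of matrix metalloproteinases, had 74.9, 80.7 and 78.4 CPM in VF, 33.6, 3.03 and 35.3 CPM in E12, and 39.7, 44.3 and 42.2 CPM in KI (log2 1.70, SE 0.63, adjusted p = 0.448; without E12 4 1.17, SE 0.16, adjusted p = 0.0371). Plxdc2, a membrane protein with a plexin repeat, had 137, 116 and 125 CPM in VF, 59.3, 5.73 and 46.4 CPM in E12, and 117, 149 and 145 CPM in KI (log2 1.76, SE 0.60, adjusted p = 0.448; without E12 4 1.25, SE 0.18, adjusted p = 0.0435). For Plxdc2 the E12 line was the low one and KI was at the VF level, while for Timp3 the VF line was the high one.

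Slc17a8, a vesicular glutamate transporter, had 59.3, 28.4 and 28.8 CPM in VF, 1.51, 0 and 2.58 CPM in E12, and 22.3, 11.9 and 18.9 CPM in KI (log2 4.79, SE 0.92, adjusted p = 0.219; without E12 4 4.24, SE 0.50, adjusted p = 0.0208). Actr3b, a paralogue of the ARP3 subunit that nucleates branched actin, had 28.4, 19.9 and 15.8 CPM in VF, 2.71, 0.882 and 2.95 CPM in E12, and 13.3, 24.6 and 13.4 CPM in KI (log2 3.27, SE 0.51, adjusted p = 0.103; without E12 4 2.91, SE 0.42, adjusted p = 0.0474). For Slc17a8, KI lay between the lines, below every VF and above every E12 library, and for Actr3b KI overlapped VF.

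Groups of genes outside the blood lineages gave no calls in either fit. Of 55 interferon response genes, 15 lay above and 2 below in all VF libraries, against 11.5% and 9.83% of all genes, and the median was 0.47. Set against E12 2 and E12 11 alone, 18 lay above and 3 below, against 16.6% and 14.7% of all genes, and the median without E12 4 was 0.28. Oas2, a sensor of double-stranded RNA, had 63.7, 104 and 64.3 CPM in VF, 34.0, 21.5 and 13.1 CPM in E12, and 37.4, 38.2 and 30.7 CPM in KI (log2 1.76, SE 0.36, adjusted p = 0.255; without E12 4 1.71, adjusted p = 0.229). Oas3 had 92.7, 109 and 62.0 CPM in VF and 38.1, 12.9 and 19.6 CPM in E12 (log2 1.90, adjusted p = 0.258; without E12 4 1.60173, adjusted p = 0.179). In these genes VF was higher than both other lines, and the difference between VF and E12 was as large without E12 4 for Oas2.

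Immediate-early genes, which cells switch on within minutes of a stimulus or of handling, had no call in either fit; limma voom with sample weights called Egr1. Of 35 genes, 2 lay above and 8 below in all VF libraries, against 11.5% and 9.83% of all genes, with a median of -0.51. Against E12 2 and E12 11 alone the counts were 2 and 9, against 16.6% and 14.7% of all genes, and the median without E12 4 was -0.60. Junb had 85.8, 68.9 and 64.6 CPM in VF, 211, 152 and 199.98 CPM in E12, and 606, 432 and 1020 CPM in KI (log2 -1.36, SE 0.32, adjusted p = 0.318; without E12 4 -1.49, adjusted p = 0.15). Egr1 had 73.5, 47.5 and 47.0 CPM in VF, 435, 201 and 99.956 CPM in E12, and 2715, 1760 and 2485 CPM in KI (log2 -2.13, SE 0.47, adjusted p = 0.285; without E12 4 -2.26, adjusted p = 0.179). The KI libraries were far above the VF and E12 libraries for Junb and Egr1. Of 24 p53 target genes, 6 lay above and 0 below, and of 25 NF-kB targets 3 and 4, against 11.5% and 9.83% of all genes. With E12 2 and E12 11 as the only E12 libraries these counts were 8 and 1 for p53 and 3 and 5 for NF-kB, against 16.6% and 14.7% of all genes. The p53 median was 0.22 and 0.23 without E12 4, and the NF-kB median -0.10 and -0.21. Ccl3, a chemokine on the NF-kB list that limma voom with sample weights called, had 0.941, 1.13 and 3.75 CPM in VF and 11.8, 31.3 and 23.5 CPM in E12 (log2 -3.51, SE 0.59, adjusted p = 0.144; without E12 4 -3.19, adjusted p = 0.11).

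The medians of several lists depended on E12 4. The median of 59 nuclear respiratory chain genes was -0.64 with it and 0.04 without it, that of 76 cytosolic ribosomal protein genes -0.50 and 0.09, that of 19 histone genes -0.97 and -0.09 and that of 54 cell cycle genes -0.18 and 0.07. The cell cycle list had 5 genes above and 0 below in all VF libraries, against 11.5% and 9.83% of all genes, and 16 and 0 against E12 2 and E12 11 alone, against 16.6% and 14.7%. Of 23 cytokine receptor genes, 10 lay below in all VF libraries, among them Flt3, Csf1r and Csf3r, and 2 above, Il6st and Tek, against 9.83% and 11.5% of all genes, with a median of -0.62. Without E12 4, 12 of 24 tested lay below and 2 above, against 14.7% and 16.6% of all genes, and the median without E12 4 was -0.39. The lists of cholesterol synthesis (0.12 and 0.05), glycolysis and hypoxia (-0.07 and 0.05), stress response (-0.14 and 0.01), imprinted genes of quiescence (-0.02 and -0.12), Jak2 neighbours (0.25 and 0.07), lymphoid genes (-1.25 and -0.88), mast cell, basophil and eosinophil genes (-3.78 and -1.30) and stroma and endothelium (-0.23 and -0.55) also had 0 calls.

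**Figure D4:**
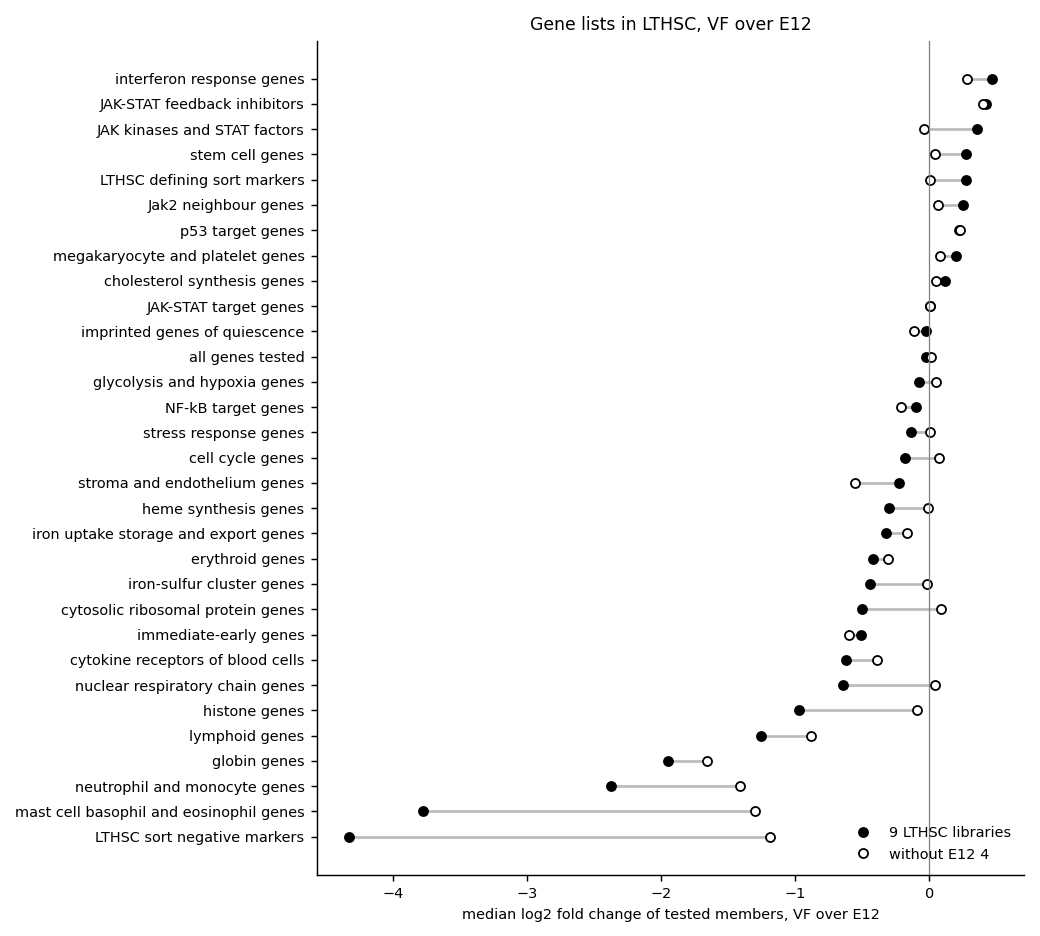
Median log2 fold change of VF over E12 over the tested members of each gene list in LTHSC, with all 9 libraries (filled) and without E12 4 (open), beside all genes tested. The neutrophil, mast cell, histone, respiratory chain and ribosomal lists move towards 0 without E12 4, while the globin list (-1.95 and -1.66), the immediate-early list (-0.51 and -0.60) and the feedback list (0.42 and 0.40) change little.

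The same lines were compared in megakaryocyte progenitors (MkP; VF 1, 2 and 3, E12 2, 4 and 5), which are committed to platelet production. The sex markers differed between the lines there: Xist was 1.96, 598 and 1.33 CPM without TMM in VF and 869, 2004 and 2062 in E12, and Y-linked genes summed to 144, 128 and 153 CPM in VF and 105, 0.289 and 0.14 CPM in E12. No gene of 13435 passed in MkP with edgeR (smallest adjusted p 0.558, 167 genes at an unadjusted p under 0.05), and DESeq2 called 8. Of the 13 genes, Socs2 had 58.3, 37.2 and 42.9 CPM in VF MkP, against 12.3, 9.61 and 6.69 CPM in E12 MkP (log2 2.28, SE 0.33, adjusted p = 0.558). Echdc2 had 2.15, 0.496 and 0.935 CPM in VF MkP and 175, 171 and 175 CPM in E12 MkP (log2 -7.17, SE 1.57). Hba-a1 had 12.3, 14.8 and 38.5 CPM in VF MkP and 298, 103 and 55.5 CPM in E12 MkP (log2 -2.80, SE 0.77). In these genes, and in Hba-a2, Slc17a8, Ecm1 and Timp3, the VF and E12 libraries did not overlap in MkP and stood in the same order as in LTHSC, although none passed. The share of all MkP genes without overlap was not counted, so how unusual this is was not measured. Libraries of the 2 populations may also come from the same animals, which the labels do not state. For E12 the sex markers differed between same-numbered libraries. Xist without TMM was 9.59 CPM in LTHSC E12 2 and 9.35 in LTHSC E12 4, against 869 and 2004 in MkP. Y-linked genes summed to 64.4 CPM in LTHSC E12 4 and 0.289 in MkP E12 4.

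Other genes had a different order in MkP. Lrg1 was low in both lines, with 2.11, 1.98 and 1.99 CPM in VF MkP and 1.27, 0.611 and 0.392 CPM in E12 MkP. The order of the lines was turned round there but did not pass (edgeR log2 1.42, SE 0.65, unadjusted p = 0.0525, adjusted p = 0.99995). Vwf had 533, 324 and 299 CPM in VF MkP and 286, 368 and 316 CPM in E12 MkP and overlapped, as did Wfdc17, Plxdc2 and Actr3b. A test of the difference between the populations, (VF minus E12 in LTHSC) minus (VF minus E12 in MkP), over all 24 libraries called none of 14965 genes with edgeR (555 at an unadjusted p under 0.05), none without LTHSC E12 4 (380 at an unadjusted p under 0.05), and 43 with DESeq2. The smallest adjusted p was 0.09, which Lrg1 shared (difference of log2 fold changes -4.66, SE 0.86); it was 0.993 for Socs2 (0.66, SE 0.54), Echdc2 (0.91, SE 1.33) and Hba-a1 (-1.23, SE 0.99). A difference between LTHSC and MkP was therefore not shown for any of these genes.

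**Figure D5:**
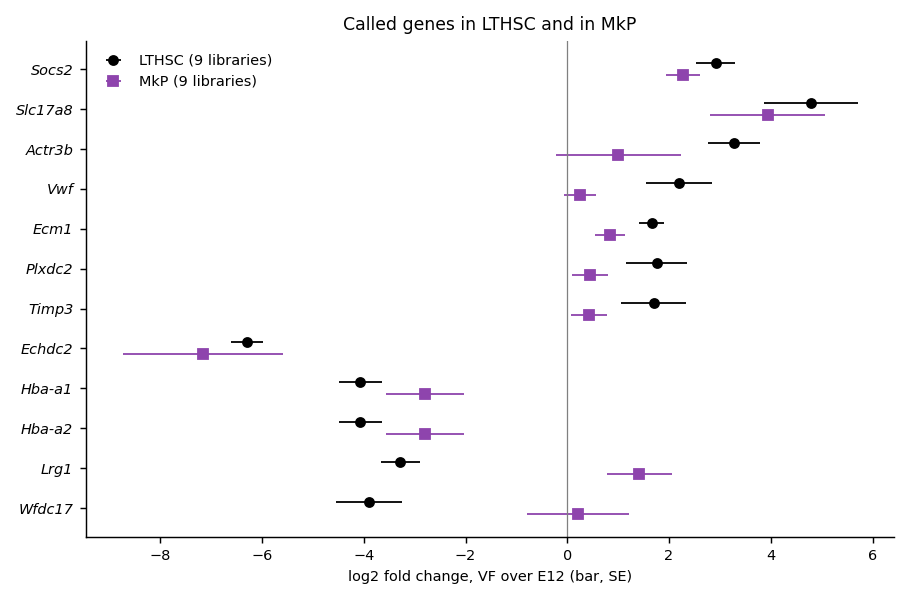
Log2 fold change of VF over E12 (bars are SE) of named genes called in either LTHSC fit, in LTHSC (circles, 9 libraries) and in MkP (squares, 9 libraries). Socs2 (2.92 and 2.28) and Echdc2 (-6.30 and -7.17) lie close together in both populations, whereas Lrg1 lies at -3.28 in LTHSC and 1.42 in MkP.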

How the data were processed

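Raw counts per gene were deposited by the authors as 1 table of 24 libraries; STAR 2.7.0c and featureCounts (Subread 1.6.4), with the mm10 build, are named in the submitters' processing notes. Annotation, strand setting and treatment of multiply mapped reads are not given in the sources used here. The deposited gene length is another column, used only for levels per kb. Of 24454 genes, 24374 IDs matched RefSeq on GRCm38.p6 and 16 had no symbol (at most 0.0132% of a library's counts); 0 sample columns were left unmapped, 6 columns named MEP being taken as preMegE. Counts differed far beyond sampling noise in all 36 pairs of LTHSC libraries (smallest chi-square per degree of freedom 19.8).

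The gene tests used R 4.3.3 and edgeR 4.0.16, with filterByExpr, TMM scaling and the robust quasi-likelihood F test (2-sided); the threshold was 0.05 after Benjamini-Hochberg adjustment. They ran over the 9 LTHSC libraries, again over the 8 without E12 4, over 9 MkP libraries, and over 24 libraries for the difference between populations. CPM is TMM-scaled within a population; Xist and Y-linked levels are not. The SE is the log2 fold change divided by the square root of F. Principal components used log2 CPM with a prior count of 2. The pipeline was tested on simulated data. Motifs were searched in RefSeq promoter windows of 280 bases.

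The comparison and the 31 gene lists were chosen with earlier results of these data known; lists are described by counts and medians and were not tested. The sex-linked list (5 genes, 0 called) served for the library check. Named genes are Jak2; up to 15 called genes per direction in either fit whose lines do not overlap and whose higher line averages at least 10 CPM; called list members, up to 6 per list; and the feedback, JAK, STAT and sort-marker genes. A few genes that meet the rule are not reported here; counts, medians and sums include them. Other list members were named after their values were seen. Alternatives were RLE scaling, no filter, DESeq2 1.42.0, limma 3.58.1 voom with and without sample weights, the 6 libraries alone, and each library left out. Reads carry no molecular identifiers, and the spread between libraries, not counting error, limits precision.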

Additional observations from a re-analysis of the deposited data

How the results depend on the processing

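Of VF against E12 in LTHSC, edgeR called 5 genes, and 5 with RLE scaling, 9 with no filter, 182 with DESeq2 (64 higher and 118 lower in VF), 4 with limma voom, 16 with limma voom and sample weights (among them Ccl3, Egr1, Slc4a1, Trib2 and Wfdc17), and 1 with the 6 VF and E12 libraries alone. Leaving out 1 library gave 1 to 305 calls. All 5 genes were also called with RLE, no filter, DESeq2 and sample weights, where E12 4 had a weight of 0.0954, and without E12 2 or E12 4. DESeq2 called 43 genes for the difference between LTHSC and MkP and 8 in MkP, against 0 with edgeR, RLE or no filter; with the VF and E12 libraries of both populations alone edgeR called 2 for that difference. The cause of these shifts was not tested. The Jak2 difference kept its sign under every alternative run.

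Log2 fold changes that changed sign, none of them called where the sign changed, belonged to feedback, JAK, STAT and sort-marker genes. Over the libraries left out in turn, Socs3 ranged from -0.28 to 0.25, Socs6 from -0.062 to 0.52, Socs7 from -0.28 to 0.063, Jak3 from -0.38 to 0.33 and Tyk2 from -0.038 to 0.28. Stat3 ranged from -0.18 to 0.41, Stat5a from -0.34 to 0.31, Stat5b from -0.13 to 0.53 and Ly6a from -0.033 to 0.28. With sample weights Socs7 had 0.070 and Stat3 -0.10, and with voom Stat5a had 0.048.

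Replicate numbers were not taken as pairs in the main fits. In VF, deviations of same-numbered LTHSC and MkP libraries correlated at 0.133, 0.0826 and 0.108, and those of differently numbered libraries at -0.0932 to -0.0179. In E12 the values were -0.06 and -0.08 for same numbers and -0.0199 to 0.0864 for different numbers. VF 2 was also the VF library with high Xist in both populations (533 CPM in LTHSC and 598 in MkP). Same-numbered VF libraries may therefore be linked, which the labels do not state and the main test of the difference did not model. A replicate block over the VF and E12 libraries of both populations gave 0 calls for the difference, against 2 without it. That block also paired E12 2 and E12 4 by number, although their Xist levels differed between the populations. Xist without TMM was 9.59 and 9.35 CPM in LTHSC, against 869 and 2004 in MkP. For E12 the block may therefore join unrelated libraries, and its result does not decide whether linkage matters. Within LTHSC the lines share a single number, so no block was possible there. Counts of list members whose lines do not overlap against E12 2 and E12 11 alone were added after the data were seen. No detection limit is given for 3 libraries a line.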
